A study of Mus musculus with 8 samples.

Results

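The genes described here are 10 that encode secreted proteins acting on bone or on blood vessels (Spp1, Tgfb1, Vegfa, Vegfb, Pdgfa, Pdgfb, Bmp1, Bmp2, Igf1 and Hbegf). They were taken by name from the 55335 genes of the table, and low genes were kept. The study took RAW264.7 cells, a mouse macrophage-like tumour line, and sequenced their RNA after 3 days with either the Trio-Active bone scaffold (TABS) or hydroxyapatite doped with magnesium ions (HA/Mg). Each scaffold had 4 libraries, numbered 5 to 8 in both groups. All 8 came from this 1 line. The labels used here do not describe what TABS is made of, and no cells without a scaffold were analysed. Groups follow the sample titles. The library names, however, carry an H where the title says TABS and an L where it says HA, and if titles and libraries had been swapped each direction given here would be the opposite. Whether replicates were separate cultures is not stated. The p-values therefore measure only library-to-library spread, which could be technical.

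Macrophages at a bone implant release factors that act on osteoblasts, on osteoclast precursors and on vessels. Osteopontin, the product of Spp1, is a matrix phosphoprotein that cells bind through integrins and CD44. TGF-beta1 is secreted in a latent form held by its own propeptide and is set free by integrins or proteases. VEGF-A drives vessel growth through the receptor VEGFR2, whereas VEGF-B binds VEGFR1. The chains PDGF-A and PDGF-B pair to form growth factors for mesenchymal cells. BMP-2 induces bone, IGF-1 promotes growth and matrix formation, and HB-EGF is shed from the cell surface as an EGF receptor ligand. BMP-1, in spite of its name, is a metalloprotease that trims procollagens and is not a ligand of BMP receptors.

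Levels are FPKM, fragments scaled by the length of the transcript and by the depth of the library, a unit per length that allows genes to be set side by side. Between 9908 and 10280 genes reached 1 FPKM in a library, and the spacing of low values implied 19600000 to 23500000 fragments per library. All 8 macrophage markers examined were expressed (Cd68 at 526 to 563 FPKM with TABS and 421 to 490 FPKM with HA/Mg), and their summed level was 2147 to 2513 FPKM with TABS and 1816 to 2247 FPKM with HA/Mg. Of the osteoclast markers Calcr was listed at 0 in every library and 2 of 8 were tested, of the osteoblast markers Bglap, Alpl, Ibsp and Dmp1 were at 0 and 0 of 8 were tested, and of the endothelial markers Emcn, Cldn5 and Tie1 were at 0 and 0 of 8 were tested. Of the markers of fibroblasts and stroma Thy1 was at 0 and 1 of 8 was tested. The osteoclast list summed to 6.71 to 8.75 FPKM with TABS and 6.95 to 8.43 FPKM with HA/Mg. The osteoblast, stromal and endothelial sums were 0.279 to 0.471, 0.981 to 1.27 and 0.259 to 0.397 FPKM with TABS, and 0.266 to 0.339, 0.8 to 1.26 and 0.312 to 0.46 FPKM with HA/Mg. HA/Mg replicate 6 stood apart from its group on the first principal component of log2(FPKM + 1), with 40.2% of the variance. The TABS libraries had scores of -16.5 to -5.72, HA/Mg replicate 6 one of -2.62 and HA/Mg replicates 5, 7 and 8 ones of 12.7 to 16.4.

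The promoter sequences of the most abundant of the 10 genes and of the one that differed between the scaffolds are shown to set the different makeup of the 2 start regions side by side. Both are the 250 bases before the RefSeq start on GRCm38.p6, on the plus strand, 5′ to 3′, at chr5:104434861-104435110 for Spp1 and chr7:25686752-25687001 for Tgfb1. Capitals mark matches, on either strand, to the TATA box (TATAAA), the GC box (GGGCGG), the CCAAT box (CCAAT), a core bound by the macrophage factor PU.1 (GAGGAAGT), the AP-1 motif (TGANTCA) and the E-box (CACGTG). No 2 of these matches overlapped in either window.
Spp1: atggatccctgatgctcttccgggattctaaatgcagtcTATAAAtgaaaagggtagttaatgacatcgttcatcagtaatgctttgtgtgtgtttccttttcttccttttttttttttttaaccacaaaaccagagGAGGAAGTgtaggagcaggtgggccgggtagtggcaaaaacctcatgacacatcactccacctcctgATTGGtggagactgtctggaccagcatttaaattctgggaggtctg
Tgfb1: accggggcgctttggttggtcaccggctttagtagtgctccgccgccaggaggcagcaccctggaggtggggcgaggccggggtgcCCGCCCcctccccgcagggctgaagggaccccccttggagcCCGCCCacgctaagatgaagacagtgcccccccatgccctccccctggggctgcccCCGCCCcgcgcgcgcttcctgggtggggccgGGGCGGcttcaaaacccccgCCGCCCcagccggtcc

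The Spp1 window held 43.6% G and C, which is higher than 20.1% of the 32851 RefSeq windows of that length, and it had a TATA box 211 to 206 bases before the start, a PU.1 core 113 to 106 bases before it and an inverted CCAAT box 46 to 42 bases before it. The Tgfb1 window held 75.2% G and C, above 96.1% of all windows, and carried 5 GC boxes, 4 of them on the opposite strand, with none of the other motifs. Of all windows, 12.4% held a TATA box, 32.7% a GC box, 33.8% a CCAAT box, 2.44% a PU.1 core, 6.75% an AP-1 motif and 6.02% an E-box. The other windows of Spp1, Vegfa, Vegfb, Pdgfa and Igf1 were searched as well, so that 6 of the 10 genes had a window. The other Spp1 window, at chr5:104435942-104436191, held 35.6% G and C and no match. Each window of Vegfa and of Pdgfa held at least 1 GC box. Of the Vegfa windows, the one at chr17:46025164-46025413 lies inside the annotated gene, before an internal start. The windows of Pdgfa and Igf1 and the other Spp1 window also lie inside their genes. The Vegfb window also held 4 GC boxes at 76.4% G and C, and the Igf1 window held an inverted CCAAT box and an AP-1 match but no GC box. Pdgfb, Bmp1, Bmp2 and Hbegf had no entry. These matches are letters in a window and not sites of binding.

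The 10 genes covered a wide range of levels. Spp1 was by far the highest, with a mean of 1868 FPKM over all 8 libraries and rank 14 among the 10161 genes tested. Tgfb1 followed at 62.4 FPKM (rank 837), then Vegfb at 18.3 (rank 2756), Pdgfb at 6.16 (rank 5771), Vegfa at 5.08 (rank 6345) and Hbegf at 3.46 FPKM (rank 7426). Pdgfa at 0.575 and Igf1 at 0.315 FPKM stayed below 1 FPKM in every library. Bmp2 was listed above 0 in 2 libraries and Bmp1 in 1. In this order the library values of neighbours overlapped for Pdgfb and Vegfa and for Bmp2 and Bmp1, and for no other neighbours. The ligand gene Bmp2 and the protease gene Bmp1 thus had almost no RNA in these cells.

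**Figure D1:**
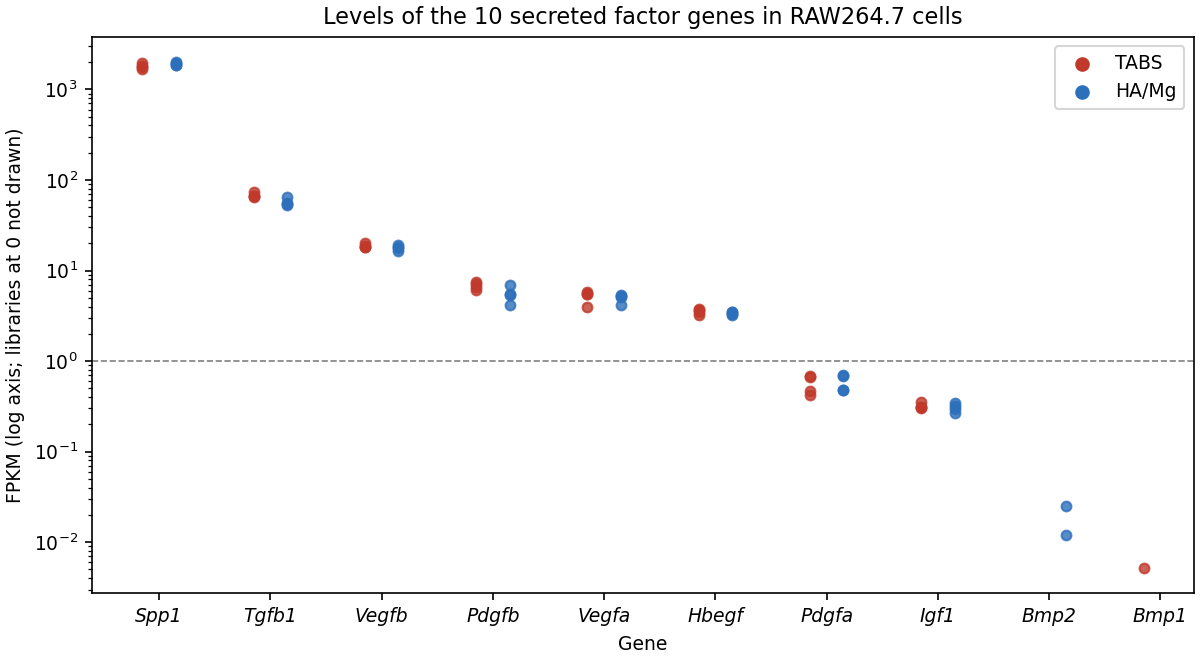
FPKM of the 10 genes on a log axis, ordered by mean level, with 1 point per library (TABS red at the left, HA/Mg blue at the right of each gene) and a dashed line at 1 FPKM (libraries at 0 are not drawn). Spp1 lies between 1693 and 2007 FPKM in all libraries, and Pdgfa, Igf1, Bmp2 and Bmp1 lie below the line.

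Between the scaffolds, 1 of the 10 genes differed. Tgfb1 was 1.19-fold higher with TABS, while Spp1, Vegfa, Vegfb, Pdgfb and Hbegf did not pass the test and Pdgfa, Igf1, Bmp1 and Bmp2 were too low to enter it. The test was limma's two-sided moderated test on log2(FPKM + 1), its variance prior following the mean level, over genes that reached 1 FPKM in 4 libraries or more, with a gene called at a Benjamini-Hochberg adjusted p under 0.05. It called 18.1% of all genes tested, 5.07% higher with TABS and 13.1% lower, so 1 called gene of 6 is near the background. At an unadjusted p under 0.05, 2 of the 6 were higher (Tgfb1 and Pdgfb) and 0 were lower. Of all 10161 genes tested, 1232 were higher and 2471 lower at that threshold. The median log2 change was 0.06 over the 6 genes and -0.04 over all genes tested. Of the 6 log2 changes 5 were positive, against 4295 of the 10161. With 6 genes, these counts do not show a shared direction. Groups were free of overlap for 1 of the 6, against 23.1% of all genes tested. In RNA from whole cultures, fewer cells that express a gene and less RNA per cell cannot be told apart.

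**Figure D2:**
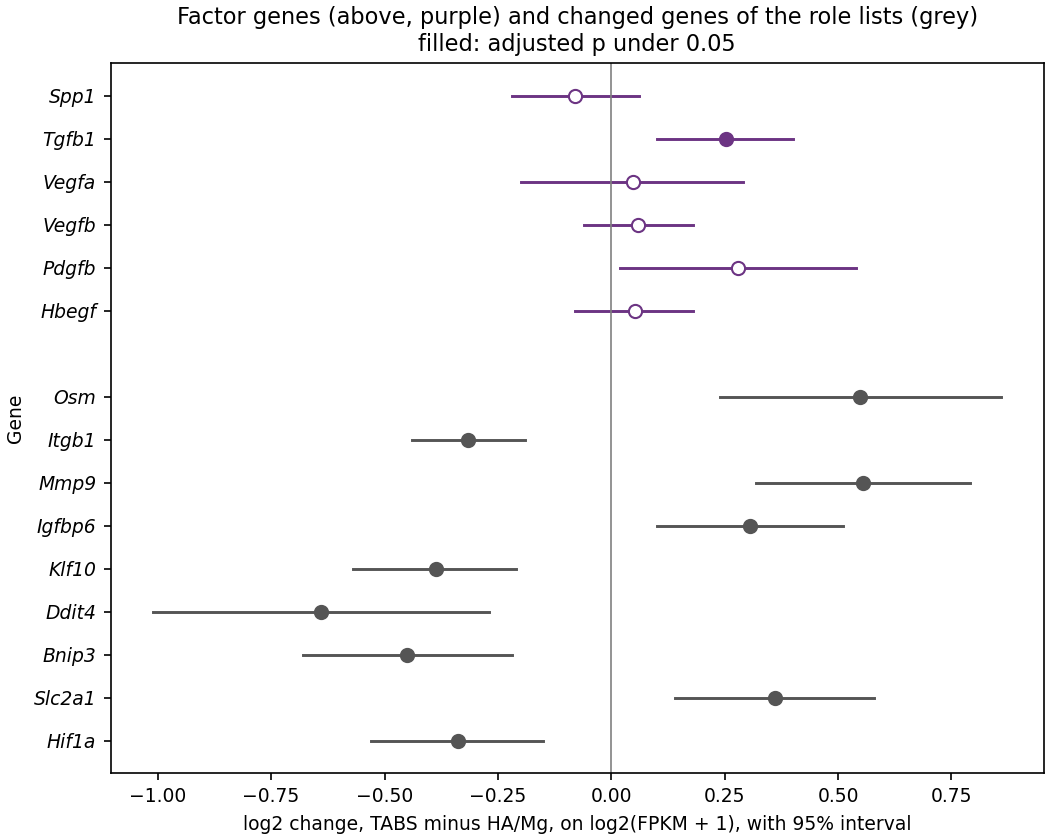
Log2 change on the log2(FPKM + 1) scale (TABS minus HA/Mg) with its 95% interval, for the 6 tested factor genes (purple) and for the genes of the role lists named below by rule (grey), with filled circles at an adjusted p under 0.05. Tgfb1 at 0.25 is the only filled circle among the factors, whereas Mmp9 and Osm reach 0.55 and Ddit4 -0.64.

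Tgfb1, which encodes the latent cytokine TGF-beta1 (ENSMUSG00000002603, chromosome 7 from 25687002 to 25705077, plus strand, GRCm38), stood at 65.8, 65.6, 74.2 and 66.0 FPKM in TABS replicates 5 to 8. It stood at 55.5, 64.2, 54.7 and 53.2 FPKM in HA/Mg replicates 5 to 8. All TABS libraries were above all HA/Mg libraries, but HA/Mg replicate 6 lay within 2 FPKM of the lowest TABS library. The mean was 67.9 ± 4.19 FPKM with TABS and 56.9 ± 4.94 FPKM with HA/Mg (SD, n = 4 each), a log2 change of 0.25 ± 0.067 (SE, limma adjusted p = 0.0335, 95% interval 0.10 to 0.40). The call ended in 7 of the 8 fits that left out 1 library: those without TABS replicates 5, 6, 7 and 8 gave adjusted p-values of 0.0611, 0.053, 0.0746 and 0.0548, and those without HA/Mg replicates 5, 7 and 8 gave 0.0925, 0.0949 and 0.0881. Without HA/Mg replicate 6 it was 0.00562. Of 8 macrophage markers, 2 also rose (Cd68 and Csf1r, log2 changes 0.26 and 0.22) and 0 fell. These 2 are 25.0% of those tested, against the 18.1% of all genes. With low genes kept in the test Cd68 did not pass (limma adjusted p = 0.0556), whereas Csf1r did (0.0213). Exons of Csf1r overlap those of Hmgxb3, a gene on the other strand that passed the filter. The part of the summed marker level given above in the Tgfb1 difference was not tested. The Tgfb1 call also ended when low genes were not filtered out (adjusted p = 0.0862). It ended as well once each library's trends on length and GC content had been removed (log2 change 0.23, adjusted p = 0.0999). The log2 change of Tgfb1 stayed between 0.20 and 0.31 in all 18 alternatives.

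**Figure D3:**
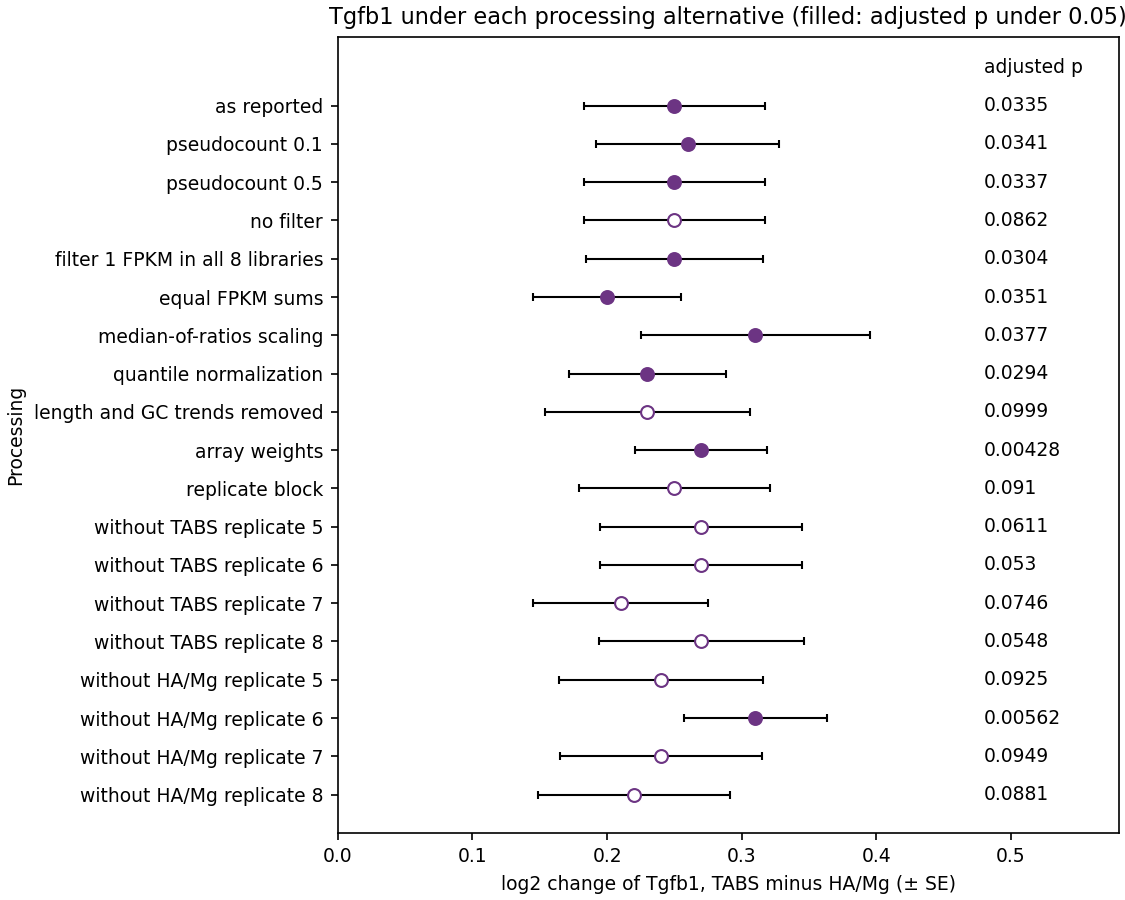
Log2 change of Tgfb1 with its SE, and the adjusted p beside it, as reported and under the 18 alternatives. All values lie between 0.20 and 0.31, and 10 of the alternatives are open circles, with an adjusted p of 0.053 to 0.0999.

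Spp1, the osteopontin gene (ENSMUSG00000029304, chromosome 5 from 104435118 to 104441050, plus strand), measured, from replicate 5 to replicate 8, 1781, 1978, 1693 and 1817 FPKM with TABS and 1856, 1970, 2007 and 1841 FPKM with HA/Mg. TABS replicate 7 was the lowest library and HA/Mg replicate 7 the highest, and the other 6 were intermixed. Means were 1817 ± 119 FPKM with TABS and 1918 ± 82.7 FPKM with HA/Mg (SD, n = 4 each), a log2 change of -0.08 ± 0.064 (SE, limma adjusted p = 0.394). Its 95% interval ran from a ratio of 0.857 to one of 1.05, a ratio of FPKM + 1 as in all such intervals below. That interval bounds the difference but does not show that the levels were alike. The transcript is poor in G and C (43.3%), and with length and GC trends removed the sign turned (0.044).

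A ratio of 2 genes within a library does not change when all values of that library are multiplied by a factor. The Spp1 level was 27.1, 30.2, 22.8 and 27.5 times the Tgfb1 level in TABS replicates 5 to 8, and 33.4, 30.7, 36.7 and 34.6 times in HA/Mg replicates 5 to 8. The ranges did not overlap, though TABS replicate 6 and HA/Mg replicate 6 were close. The ratio is built from the Tgfb1 values given above, so it is not separate evidence of a difference. No test was made of this ratio, and it does depend on corrections that act on genes unequally: with length and GC trends removed the log2 changes were 0.044 for Spp1 and 0.23 for Tgfb1, against -0.08 and 0.25 as reported.

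**Figure D4:**
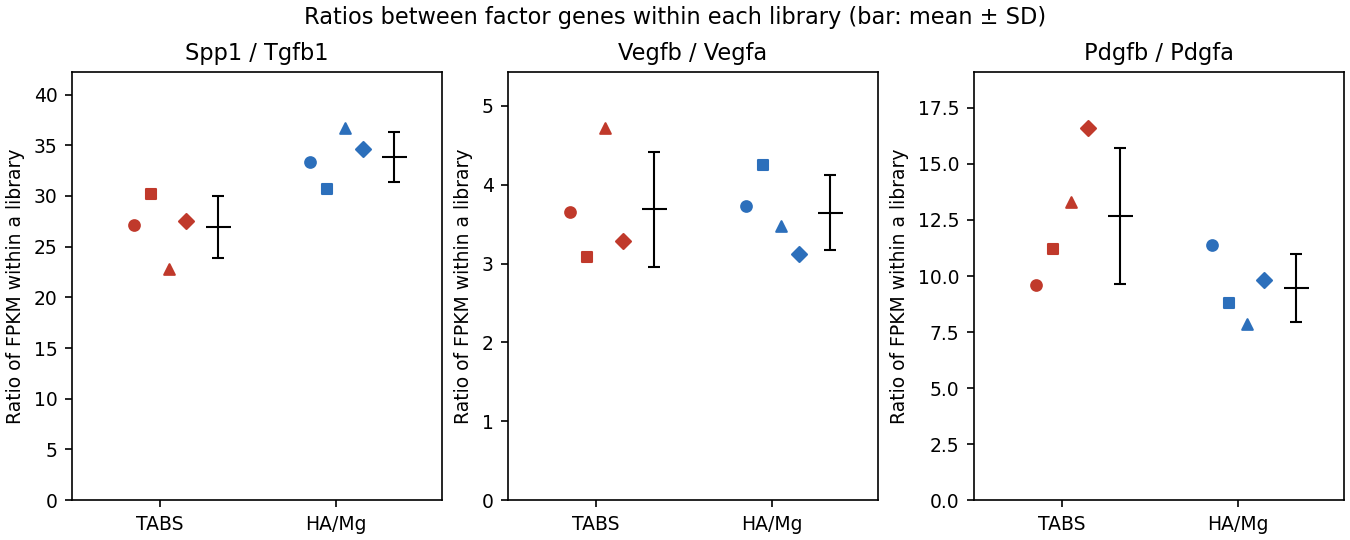
Ratios of FPKM between pairs of factor genes within each library (TABS left, HA/Mg right, marker shape by replicate number as circle 5, square 6, triangle 7 and diamond 8, bar for mean ± SD). For Spp1 over Tgfb1 the TABS libraries lie at 22.8 to 30.2 and the HA/Mg libraries at 30.7 to 36.7, and in the other 2 panels the groups overlap.

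Of the VEGF genes, Vegfb was the more abundant. Vegfb (ENSMUSG00000024962, chromosome 19 from 6982473 to 6987651, minus strand) was at 20.0, 18.0, 18.8 and 18.1 FPKM with TABS and 19.1, 17.6, 18.2 and 16.6 FPKM with HA/Mg, in replicates 5 to 8. The groups were intermixed, and the log2 change was 0.06 ± 0.055 (SE, limma adjusted p = 0.46), with a 95% interval from a ratio of 0.956 to one of 1.14. Its transcript is rich in G and C (62.6%), and with length and GC trends removed its sign turned (-0.058).

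Vegfa (ENSMUSG00000023951, chromosome 17 from 46016993 to 46032369, minus strand) was at 5.46, 5.83, 3.98 and 5.50 FPKM with TABS and 5.14, 4.15, 5.24 and 5.33 FPKM with HA/Mg, in replicates 5 to 8. In each group 1 library was low, TABS replicate 7 and HA/Mg replicate 6, and the other 6 lay between 5.14 and 5.83 FPKM. These 2 libraries also had the fewest genes reaching 1 FPKM (9908 and 9967, against 10085 to 10280 in the other 6) and the lowest scores on the second principal component (-8.38 and -11.1), and the part of these features in the low values was not tested. The log2 change of Vegfa was 0.05 ± 0.11 (SE, limma adjusted p = 0.786). Its 95% interval ran from a ratio of 0.871 to one of 1.23, in FPKM + 1. It was 0.15 without TABS replicate 7 and turned to -0.021 without HA/Mg replicate 6 and to -0.003 without TABS replicate 6. Within libraries Vegfb was 3.09 to 4.72 times Vegfa with TABS and 3.12 to 4.25 times with HA/Mg, the highest ratio in each group being that of its low Vegfa library.

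Of the PDGF chains, Pdgfb was expressed and Pdgfa was near the limit. Pdgfb (ENSMUSG00000000489, chromosome 15 from 79995874 to 80014977, minus strand) measured, from replicate 5 to replicate 8, 6.61, 7.49, 6.16 and 7.03 FPKM with TABS and 5.48, 4.20, 5.40 and 6.93 FPKM with HA/Mg. HA/Mg replicate 8 lay among the TABS libraries and the other 3 HA/Mg libraries below all of them. The mean was 6.82 ± 0.567 FPKM with TABS and 5.50 ± 1.12 FPKM with HA/Mg (SD, n = 4 each). The log2 change of 0.28 ± 0.12 (SE) did not pass (limma adjusted p = 0.117). Its 95% interval ran from a ratio of 1.01 to one of 1.46, in FPKM + 1 and not in FPKM. The gene passed with quantile normalization (adjusted p = 0.0301) and in no other alternative, where the adjusted p was at least 0.0524.

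Pdgfa measured 0.688, 0.670, 0.464 and 0.425 FPKM with TABS and 0.481, 0.478, 0.686 and 0.705 FPKM with HA/Mg, from replicate 5 to replicate 8. Each group held a high pair and a low pair, TABS replicates 5 and 6 and HA/Mg replicates 7 and 8 being high. About 18.5 to 34.1 fragments stood behind each value by the depth estimate, which used the longest of 7 transcripts and is rough. That is a counting error of about 23.2% at the lowest. Without the filter its adjusted p was 0.895. Within libraries Pdgfb was 9.62 to 16.6 times Pdgfa with TABS and 7.87 to 11.4 times with HA/Mg.

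Hbegf, the membrane-anchored precursor of HB-EGF (ENSMUSG00000024486, chromosome 18 from 36504927 to 36515805, minus strand), was at 3.77, 3.27, 3.48 and 3.67 FPKM with TABS and 3.32, 3.46, 3.50 and 3.24 FPKM with HA/Mg, in replicates 5 to 8. The groups were intermixed within a narrow range. The log2 change was 0.05 ± 0.059 (SE, limma adjusted p = 0.545). Its 95% interval ran from a ratio of 0.946 to one of 1.14, in FPKM + 1. Igf1, the insulin-like growth factor, was at 0.305 to 0.353 FPKM with TABS and 0.269 to 0.347 FPKM with HA/Mg, on an estimated 43.7 to 53.5 fragments, and its adjusted p without the filter was 0.808. Bmp2 was listed at 0 in all 4 TABS libraries and at 0.025, 0, 0 and 0.012 FPKM in HA/Mg replicates 5 to 8. Bmp1 was listed at 0.00525 FPKM in TABS replicate 8 and at 0 in the other 7 libraries. These values correspond to an estimated 2.02 fragments or fewer for Bmp2 and 0.597 for Bmp1, and no difference was detectable at this depth (adjusted p = 0.502 and 0.872 without the filter, where limma called 3.53% of 22906 genes).

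**Figure D5:**
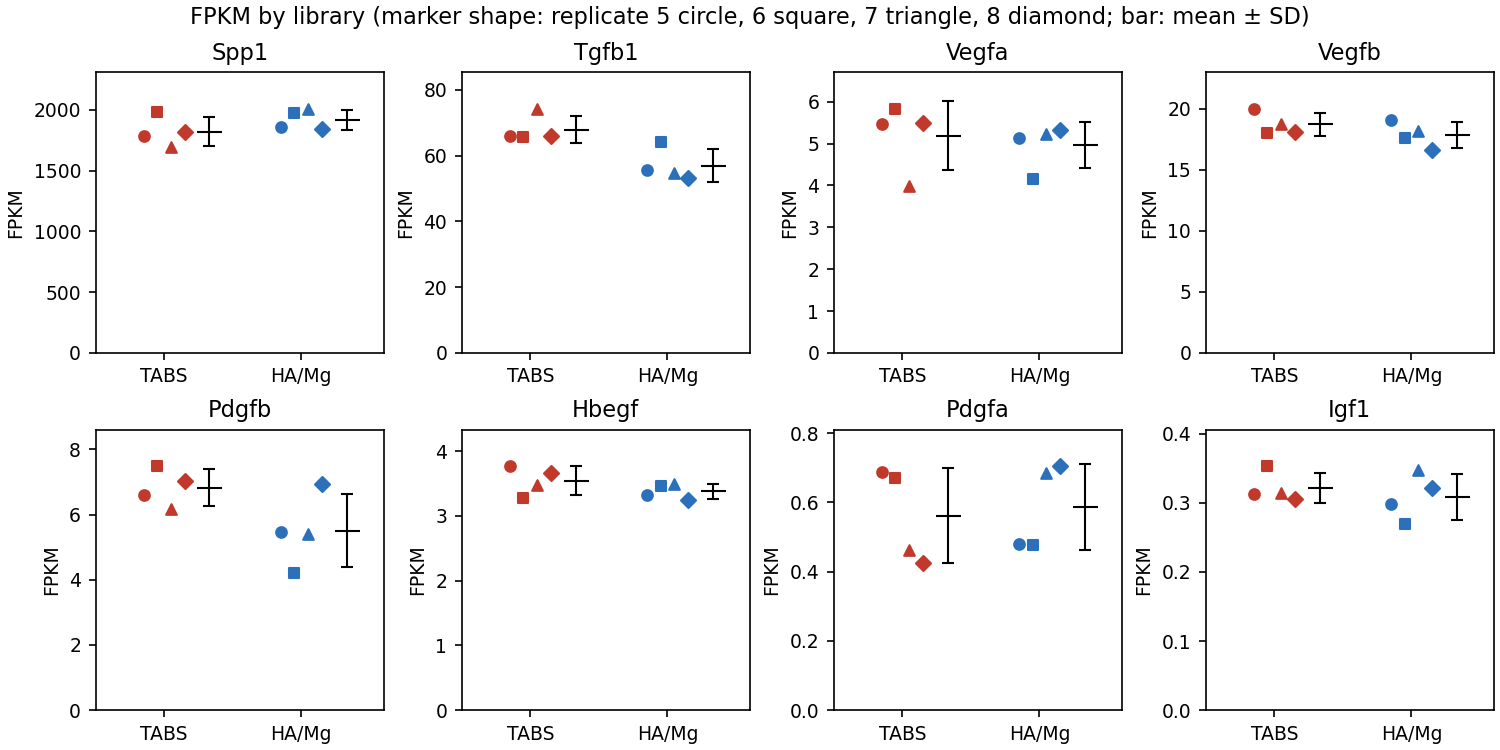
FPKM of the 8 genes with a value above 0 in every library, 1 panel each with its own axis from 0 (TABS left, HA/Mg right, marker shape by replicate number, bar for mean ± SD). Tgfb1 is the 1 panel where no HA/Mg library reaches the TABS range, and in the Vegfa panel TABS replicate 7 at 3.98 and HA/Mg replicate 6 at 4.15 lie below the rest.

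Other secreted proteins that are not among the 10, some of them relatives of the 10 and some not, were mostly low. Of 26 such genes 3 were tested and 11 were listed at 0 in every library, among them Pdgfc, Pdgfd, Igf2, Bmp4 and the EGF-family ligands Tgfa, Areg, Ereg and Btc. Of the 3 tested, 1 rose and 0 fell (0 fell also at an unadjusted p under 0.05, limma). That is 33.3% called, against the 18.1% of all genes. Osm, which encodes the cytokine oncostatin M and acts on osteoblasts, was the 1 that rose. It stood at 9.59, 11.0, 6.60 and 6.96 FPKM in TABS replicates 5 to 8, against 5.02 to 5.73 FPKM with HA/Mg, and all TABS libraries were higher. Its log2 change was 0.55 ± 0.14 (SE, adjusted p = 0.0282). The call of Osm ended without TABS replicate 5 or HA/Mg replicate 5, 7 or 8 (adjusted p from 0.0598 up to 0.0779) with length and GC trends removed (0.0625) and with low genes kept in the test (0.0855).

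Of 33 receptor genes 12 were tested, 0 rose and 1 fell, which is 8.33% called, against the 18.1% of all genes. At an unadjusted p under 0.05 limma had 2 higher and 3 lower, against 1232 and 2471 of all 10161 genes tested. Itgb1, the integrin beta1 chain that takes part in receptors for osteopontin and other matrix proteins, fell to 34.0 ± 2.47 FPKM with TABS, against 42.6 ± 1.81 FPKM with HA/Mg (SD, n = 4 each), a log2 change of -0.32 ± 0.057 (SE, adjusted p = 0.0125). It stayed called in each fit that left out 1 library, and its log2 change was -0.17 with length and GC trends removed (adjusted p = 0.0792). The receptors that follow were named after their values were seen. Cd44, another receptor for osteopontin, was at 31.3 to 33.6 FPKM with TABS and 26.9 to 30.2 FPKM with HA/Mg, and it did not pass (log2 change 0.15 ± 0.049, SE, adjusted p = 0.0633). The TGF-beta receptor chains were unequal. Tgfbr2, which binds the ligand, was at 11.2 to 12.8 FPKM with TABS and 11.0 to 12.1 FPKM with HA/Mg, whereas Tgfbr1, its signalling partner, was at 0.071 to 0.119 FPKM with TABS and 0.0998 to 0.17 FPKM with HA/Mg. Of the VEGF receptors and co-receptors, Nrp2 was at 48.8 to 59.0 FPKM with TABS and 51.2 to 54.8 FPKM with HA/Mg. Nrp1, by contrast, was at 0.291 to 0.42 FPKM with TABS and 0.353 to 0.447 FPKM with HA/Mg. Flt1 (VEGFR1) did not exceed 0.104 FPKM with TABS or 0.158 FPKM with HA/Mg, and Kdr (VEGFR2) did not exceed 0.00523 FPKM with TABS or 0.0101 FPKM with HA/Mg. The EGF receptor gene Egfr was at 0 in all TABS libraries and at most 0.00159 FPKM with HA/Mg, and Erbb4, which also binds HB-EGF, was at 0 in all 8.

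Among 25 genes of activation and processing 10 were tested, 1 rose and 0 fell. This 1 called gene of 10 tested is a smaller share than the 18.1% of all genes. At an unadjusted p under 0.05 limma had 2 higher and 0 lower, against 1232 and 2471 of all 10161 genes tested. Mmp9, a secreted gelatinase that degrades matrix and can release stored growth factors, measured 159, 143, 143 and 129 FPKM with TABS and 92.3, 121, 94.4 and 84.7 FPKM with HA/Mg, from replicate 5 to replicate 8. All TABS libraries were above all HA/Mg libraries, with HA/Mg replicate 6 again the nearest to them. The log2 change was 0.55 ± 0.11 (SE, adjusted p = 0.0136), and it stayed called in each fit without 1 library. Furin, the protease that cleaves the TGF-beta1 precursor, was named after its values were seen. It was at 8.49 to 15.8 FPKM with TABS and 6.37 to 11.5 FPKM with HA/Mg (log2 change 0.40 ± 0.21, SE, adjusted p = 0.201), and its groups overlapped. Nrros, which tethers latent TGF-beta1 on macrophages and was also named after its values were seen, ranged widely within TABS, at 6.45 to 20.1 FPKM, against 14.1 to 23.0 FPKM with HA/Mg (adjusted p = 0.158).

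Among 23 inhibitors and binding proteins 6 were tested and 9 were at 0 in every library, the BMP antagonists Nog, Grem1 and Chrd included. Of the 6, 1 rose and 0 fell, with 1 higher and 3 lower at an unadjusted p under 0.05 (limma). The share called was 16.7%, near the 18.1% of all genes. Igfbp6, which encodes a protein that binds insulin-like growth factors, was at 2.53 ± 0.389 FPKM with TABS and 1.84 ± 0.175 FPKM with HA/Mg (SD, n = 4 each, log2 change 0.31 ± 0.091, SE, adjusted p = 0.047), and its groups overlapped. That call ended in the 6 fits that left out 1 of TABS replicates 5, 6 and 8 or of HA/Mg replicates 5, 7 and 8 (adjusted p from 0.0876 up to 0.129), after rescaling to equal sums (0.0781), with low genes kept in the test (0.125) and with length and GC trends removed (0.249, log2 change 0.18).

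Known targets of TGF-beta and BMP signalling did not move one way. Of 14 such genes 6 were tested, 1 rose, 1 fell and 4 did not pass, with a median log2 change of 0.12. The 2 called are 33.3% of those tested, against the 18.1% of all genes, and at an unadjusted p under 0.05 limma had 2 higher and 1 lower. Klf10, an early response gene of TGF-beta that encodes a transcription factor, fell to 2.70 ± 0.094 FPKM with TABS, against 3.86 ± 0.521 FPKM with HA/Mg (SD, n = 4 each, log2 change -0.39 ± 0.08, SE, adjusted p = 0.0168, or 0.0572 without HA/Mg replicate 7).

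Vegfa and Adm are targets of the hypoxia factor HIF-1, and the genes around that factor were mixed. Of 20 listed 18 were tested, 2 rose, 3 fell and 13 did not pass, with a median log2 change of -0.04. The 5 called are 27.8% of those tested, against the 18.1% of all genes. Hif1a itself fell to 16.0 ± 1.52 FPKM with TABS, against 20.5 ± 1.92 FPKM with HA/Mg (SD, n = 4 each, log2 change -0.34 ± 0.084, SE, adjusted p = 0.0272). Ddit4, a stress-induced inhibitor of mTOR signalling, had a log2 change of -0.64 ± 0.16 (3.72 against 6.32 FPKM, TABS against HA/Mg, adjusted p = 0.0296, groups overlapping). Bnip3, a mitophagy receptor, had one of -0.45 ± 0.10 (11.9 against 16.9 FPKM, adjusted p = 0.0207). Slc2a1, the glucose transporter GLUT1, was higher (74.4 against 57.4 FPKM, log2 change 0.36 ± 0.097, adjusted p = 0.0349), as was Car9, a carbonic anhydrase named after its values were seen (7.98 against 6.73 FPKM, adjusted p = 0.0428). The call of Car9 ended in 7 of the 8 fits without 1 library (adjusted p up to 0.106, kept without HA/Mg replicate 6), with low genes kept in the test (0.083), with equal sums (0.0888) and with length and GC trends removed (0.135). Its exons overlap those of the antisense gene Gm12454, which passed the filter, and reads of the pair cannot be told apart if strand was not used. Without 1 library the calls of Hif1a (6 of 8 fits, adjusted p up to 0.0801, kept without TABS replicate 6 or HA/Mg replicate 6), Ddit4 (6 of 8, up to 0.0869, kept without TABS replicate 8 or HA/Mg replicate 6), Slc2a1 (5 of 8, up to 0.082, kept without TABS replicate 7, TABS replicate 8 or HA/Mg replicate 6) and Bnip3 (0.0515 without HA/Mg replicate 8) ended. With length and GC trends removed Hif1a was at -0.13 (adjusted p = 0.113), Bnip3 at -0.30 (0.103) and Slc2a1 at 0.33 (0.0504). With low genes kept in the test none of the 4 passed (adjusted p = 0.0772 for Hif1a, 0.0918 for Ddit4, 0.0645 for Bnip3 and 0.1 for Slc2a1). With rescaling to equal sums and with quantile normalization Slc2a1 did not pass either (0.0774 and 0.0663).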

How the data were processed

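The 8 samples were grouped by their titles, and table columns were tied to samples through the library names in the sample descriptions. Per the labels' protocols, RNA was extracted with TRIzol and read as paired ends of 150 bases. The tools fastp, STAR and DESeq2 and the build GRCm38 are named in the submitters' processing notes. The program behind the FPKM, its annotation and its strand setting: not given in the sources used here. Values were deposited as FPKM. Of 55335 identifiers 55154 matched GENCODE M21 on GRCm38, which gave symbols, positions, and the length and GC content of the longest transcript.

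The depth estimate took genes with 1 transcript, and 33.9% to 35.9% of low values were whole fragments within 0.05 fragment, so no count test was run. Estimated fragments used the longest transcript of each gene, so they are rough, and the value for Bmp1 was below 1 fragment. They give counting error only. limma 3.58.1 (R 4.3.3) was fitted to log2(FPKM + 1) of the 10161 genes that reached 1 FPKM in 4 libraries or more, a scale that understates changes of low genes. The fit was checked on simulated data with independent noise for each gene and library. That check could not show the effect of differences that span a whole library. The 10 genes and all lists were chosen with earlier results of these data known, so none is independent evidence. All 10 were named, with up to 4 changed genes of each of 6 role lists by size of change, 1 of which is not reported here. Alternatives were pseudocounts of 0.1 and 0.5, 2 other filters, 3 rescalings, removal of length and GC trends (natural splines, 4 degrees of freedom), array weights, a replicate block, and leaving out each library. Promoter sequences are from RefSeq (GRCm38.p6). Exons of the 19 genes named as members or by this rule overlapped those of 0 genes that passed the filter.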

Additional observations from a re-analysis of the deposited data

Results flagged for a closer look

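In 4 of the 38 groups of 4 libraries examined (19 genes in 2 groups), 1 library lay far from the other 3, by the ratio of its gap to the range of the group. Chance flags about 1 group in 20, a rate that does not apply to groups listed mostly at 0. Bmp1 with HA/Mg and Bmp2 with TABS were at 0 in all 4 libraries, had no range and could not be flagged. Tgfb1 in TABS replicate 7 was 74.2 FPKM, with the next library at 66.0 FPKM. Vegfa in HA/Mg replicate 6 was 4.15 FPKM, with the next at 5.14 FPKM. Slc2a1 in HA/Mg replicate 6 was 51.0 FPKM, with the next at 58.7 FPKM. Bmp1 in TABS replicate 8 was 0.00525 FPKM, with the other 3 at 0, which fixes its ratio of gap to range at 1.0.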

How the results depend on the processing

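The number of genes changed, 1842 as reported (28.0% of them higher with TABS), was 808 with no filter, 647 with length and GC trends removed, 3532 with array weights and 0 with the replicate block (smallest limma adjusted p 0.0589, with 938 higher and 2049 lower at an unadjusted p under 0.05). It was 429 to 3320 without 1 library, the lowest without HA/Mg replicate 5 and the highest without HA/Mg replicate 6. Higher calls made up 45.5% (862 higher, 1033 lower) when libraries were scaled by median of ratios, 40.3% with quantile normalization (806 higher, 1192 lower), 40.6% with length and GC trends removed (263 higher, 384 lower) and 13.9% with equal sums (251 higher, 1549 lower), against 515 higher and 1327 lower as reported. The number of factor genes higher with TABS, 1 as reported, was 2 with quantile normalization (Tgfb1 and Pdgfb), and 0 with no filter, with the length and GC trends removed and with the replicate block. Without 1 library it was 0 to 1. The number lower was 0 in each alternative. The sign turned for Spp1 (0.044) and Vegfb (-0.058) with length and GC trends removed, and for Vegfa without TABS replicate 6 (-0.003) or HA/Mg replicate 6 (-0.021; 0.15 without TABS replicate 7), none of them called. With no filter 22906 genes were tested in place of 10161. For the other changes the cause was not tested. Same-numbered libraries did not deviate together (correlations 0.0106, -0.275, -0.16 and 0.128 for replicates 5 to 8), so the numbers were not taken to pair the samples, and under the replicate block Tgfb1 had an adjusted p of 0.091. Depth limits Pdgfa, Igf1, Bmp1 and Bmp2.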
